A study of Mus musculus with 7 samples.

Results

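The genes described here are the 10 that receive the Hedgehog signal or carry it to transcription: *Ptch1*, *Hhip*, *Smo*, *Boc*, *Cdon*, *Gas1*, *Gli1*, *Gli2*, *Gli3* and *Sufu*. They were listed by symbol as genes of the pathway, with earlier results of these data already known. All 10 were found among the 13280 genes of the count table. All 10 also passed the filter on low counts (at least 5 reads in at least 2 of the 7 libraries), as did 11134 genes in all.

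Hedgehog ligands are secreted proteins that act through the primary cilium of the receiving cell. Without ligand, Ptch1 holds Smo inactive, and Gli3 and Gli2 are processed to forms that repress transcription. When ligand binds Ptch1 together with the co-receptors Boc, Cdon or Gas1, Smo is released and the Gli proteins activate transcription. *Gli1*, *Ptch1* and *Hhip* are themselves classical targets of the pathway, so their transcripts are often used as its readout. Ptch1 and Hhip both bind ligand and limit the response. In muscle, Hedgehog signalling is known from the induction of myogenic genes in the embryo and from regeneration in the adult.

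RNA-seq compared muscle stem cells (MuSCs) that had or had not switched on a *Gli1*-driven label. Adult Gli1-CreERT2; R26-tdT mice, given as C57BL/6 in the labels and as a mixed background in the study's methods, carried a tamoxifen-inducible Cre recombinase knocked into *Gli1* and a red fluorescent reporter, tdT, that Cre switches on. All mice received TAM (tamoxifen) and were uninjured, and their hindlimb muscle was digested 3 days later and sorted for MuSCs (CD45-CD31-Sca1-VCAM1+). The tdT+ cells are called Gli1+ MuSCs (4 libraries) and the tdT- cells Gli1- MuSCs (3 libraries). Both groups therefore shared the knock-in, the reporter, TAM and the gate, and were separated by tdT. The knocked-in *Gli1* allele is disrupted by the insertion, and the counts cannot separate its transcripts from those of an intact allele. The study states that only heterozygous carriers of the knock-in were used, and reports their *Gli1* expression as unchanged by RT-qPCR. Since tdT is permanent once switched on, it marks a cell in which *Gli1* was active around the TAM injections, not only at the time of sorting. The study describes its replicates as biologically independent. The sources used here do not give the number of mice behind a library, so p-values measure the spread between these libraries. That spread may include technical differences.

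Depth was 12808512 to 19662721 reads assigned to genes in the Gli1- libraries and 10595181 to 13781283 in the Gli1+ libraries. The number of genes with a read was lower in Gli1- replicates 2 and 3 (5471 and 6834) than in the other 5 libraries (8579 to 10829). Of the genes tested, 51.5% had no read in Gli1- replicate 2. All 10 MuSC markers (*Pax7*, *Myf5* and *Cdh15* among them) were detected in every library, at summed levels of 4892 to 6961 CPM in the Gli1- and 4470 to 6570 CPM in the Gli1+ libraries. CPM are counts scaled to library size, here after TMM scaling. Libraries also held transcripts of other cells of muscle. The 15 markers of fibro/adipogenic progenitors (FAPs) and fibroblasts summed to 1962, 3606 and 2827 CPM in Gli1- replicates 1 to 3 and to 2032, 2797, 5802 and 8615 CPM in Gli1+ replicates 1 to 4. *Pdgfra*, which defines FAPs, had reads in Gli1- replicate 2 (325), Gli1+ replicate 2 (125) and Gli1+ replicate 3 (472) and none in the other 4 libraries. Tenocyte markers were highest in Gli1+ replicates 3 and 4 (1274 and 1051 CPM) and Gli1- replicate 2 (813 CPM), and the immune markers summed to 268 and 201 CPM in Gli1+ replicates 3 and 4, 133 and 62.7 CPM in Gli1- replicates 2 and 3 and at most 11.8 CPM in the other libraries. Among these, *Ptprc*, which marks blood cells, had reads in Gli1+ replicate 3 alone (98), and *S100a8*, a neutrophil gene, had 958 and 986 in Gli1- replicates 2 and 3 and at most 2 elsewhere. Endothelial markers summed to 973 CPM in Gli1- replicate 2 and 1202 CPM in Gli1+ replicate 3, and to 145 to 415 CPM in the others.

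*Gli1*, the transcription factor whose locus drives Cre, was examined first as a check of the sort. The gene (ENSMUSG00000025407) occupies chromosome 10 of GRCm38, 127329882 to 127341974, minus strand. Gli1+ replicates 1 to 4 held 543, 421, 80 and 182 *Gli1* reads, and Gli1- replicates 1 to 3 held 214, 0 and 0. Every Gli1+ library and 1 of the 3 Gli1- libraries thus held *Gli1* transcripts. Absence from Gli1- replicates 2 and 3 was common at this level. Among the 2815 other genes within 1.5-fold of its Gli1+ mean, 56.1% had no read in replicate 2 and 38.7% in replicate 3. Of the same genes, 24.5% lacked reads in at least 2 Gli1- libraries. In CPM these were 50.3, 30.7, 7.28 and 18.3 against 11.6, 0 and 0, so the groups overlapped: Gli1+ replicate 3 was below Gli1- replicate 1. The means were 26.6 ± 18.4 CPM (SD, n = 4) and 3.86 ± 6.68 CPM (SD, n = 3), and the log2 fold change was 2.78 with a standard error of 2.44 (edgeR quasi-likelihood test, Benjamini-Hochberg adjusted p = 1.00). The mean was thus higher in the cells labelled Gli1+, by about the size of the standard error. The size of the difference rested on single libraries. Without Gli1- replicate 1, no Gli1- library held a *Gli1* read, and the fitted log2 fold change, which then depends on the prior count, was 11.41 (edgeR, adjusted p = 0.181). Without Gli1- replicates 2 and 3 it was 1.20, and its adjusted p ran from 0.181 to 1.00 over the 18 alternatives. In a bulk library, fewer cells with a transcript and less transcript per cell cannot be told apart. Exons of the opposite strand overlap *Gli1* over 62 bp (*Arhgap9*) and 265 bp (*Gm47200*); no source used here states if reads were counted by strand.

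*Hhip* encodes a membrane-anchored protein that binds Hedgehog ligands and keeps them from Ptch1. The gene (ENSMUSG00000064325) spans chromosome 8 of GRCm38 from 79965851 to 80058006 on the minus strand. Gli1+ replicates 1 to 4 held 587, 1354, 927 and 607 *Hhip* reads, and none of the 3 Gli1- libraries held one. Every Gli1+ library was thus well above every Gli1- library. Its level was 54.4, 98.6, 84.3 and 61.1 CPM in the Gli1+ libraries, a mean of 74.6 ± 20.5 CPM (SD, n = 4). With each Gli1- library set to a floor of 3 reads (0.186 CPM in the mean), the Gli1+ mean of *Hhip* was 400.3-fold over that floor. The floor covers counting error only. Many genes of moderate level were missing from a Gli1- library, so this ratio is not a lower bound. Of the 11134 genes tested it had the smallest p by edgeR's quasi-likelihood test (rank 1), and its adjusted p of 0.278 did not pass 0.05. That call depended on the method and on a single library. The adjusted p was 8.42e-14 with DESeq2 and 0.0174 with edgeR without Gli1- replicate 2, and ran from 8.42e-14 to 1.00 over all 18 alternatives.

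The absence of *Hhip* from the Gli1- libraries was set beside other genes of its level, since many genes of moderate level had no read in Gli1- replicates 2 and 3. Among the 1965 other genes within 1.5-fold of its Gli1+ mean, the share without a read was 0.458% in Gli1- replicate 1, 22.6% in replicate 2 and 8.80% in replicate 3. Absence from replicate 2 was therefore common at this level, absence from replicate 3 was less so, and absence from replicate 1 was rare. None of the 1965 lacked reads in all 3 Gli1- libraries, and 70 of them (3.56%) lacked reads in at least 2. Among the 11134 genes tested, 426 had no read in any of the 3 Gli1- libraries and 53 had none in any of the 4 Gli1+ libraries. These counts cannot be compared directly, since the groups differ in size and in the number of genes detected. A gene without reads in a whole group also passed the filter through the other group alone.

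**Figure D1:**
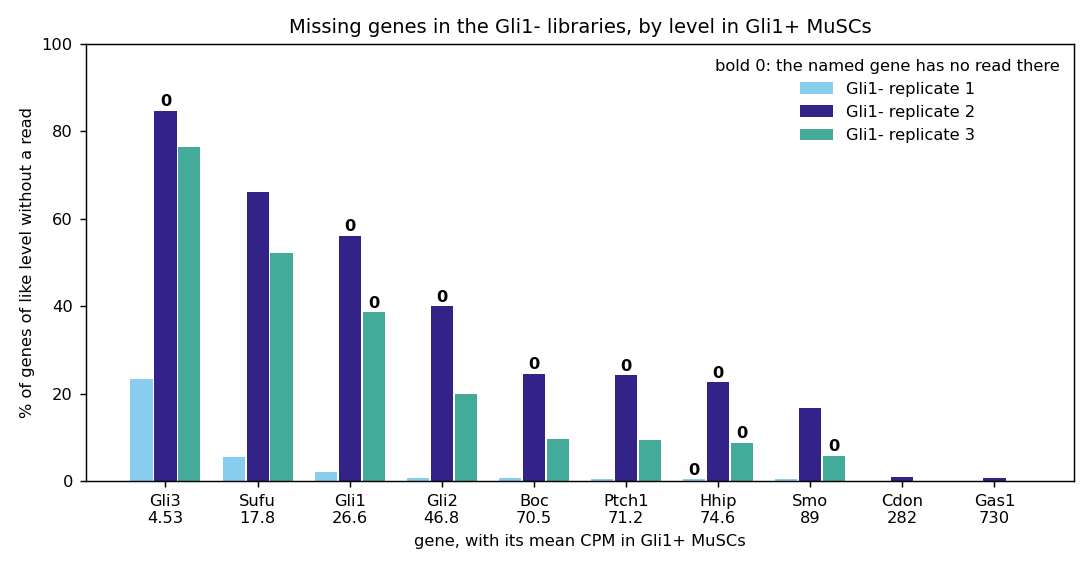
Share of genes without a read in each Gli1- library (y axis, %), among genes within 1.5-fold of each named gene's mean level in Gli1+ MuSCs (x axis, genes ordered by that mean in CPM). Bars are the 3 Gli1- libraries and a bold 0 marks a library in which the named gene itself had no read; *Hhip* is the only one of the 10 genes with a 0 over Gli1- replicate 1, where the bar is 0.458%.

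Since *Hhip* and *Ptch1* are both targets of the Gli proteins, the sequences around their RefSeq starts are shown (GRCm38.p6), from 250 bases before to 50 bases after the start and read along the gene. Capitals mark the core of the Gli binding site, CCACCC, searched on both strands. The *Hhip* window is chr8:80057959-80058258 (minus strand, 73.7% G+C) and the *Ptch1* window is chr13:63565686-63565985 (minus strand, 76.3% G+C), against a median of 52.7% G+C over all windows. The RefSeq start of *Ptch1* lies 7863 bases inside the GENCODE span of the gene given here, so its window is not at the 5′ end of that span, while the starts of *Hhip* differ by 2 bases.
Hhip: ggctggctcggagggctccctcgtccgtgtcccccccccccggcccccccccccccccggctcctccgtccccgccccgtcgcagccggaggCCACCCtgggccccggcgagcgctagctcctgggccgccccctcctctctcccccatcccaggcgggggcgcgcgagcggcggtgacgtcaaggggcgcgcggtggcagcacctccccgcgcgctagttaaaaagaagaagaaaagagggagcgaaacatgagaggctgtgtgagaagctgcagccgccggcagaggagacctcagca
Ptch1: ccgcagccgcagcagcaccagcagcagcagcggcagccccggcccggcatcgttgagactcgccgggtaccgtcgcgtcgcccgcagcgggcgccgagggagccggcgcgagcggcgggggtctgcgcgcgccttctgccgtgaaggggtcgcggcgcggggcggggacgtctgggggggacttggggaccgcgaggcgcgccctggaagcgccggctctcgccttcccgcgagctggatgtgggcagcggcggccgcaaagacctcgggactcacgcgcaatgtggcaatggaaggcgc
Of the 10 genes, 8 had such a window (all but *Boc* and *Gli1*). The 6-letter core was found in *Hhip*, at an offset of -158 bases from the start, in *Smo*, in *Gli3* and at 2 places in *Gli2*, and not in *Ptch1*, *Cdon*, *Gas1* or *Sufu*. The *Cdon* window is likewise at a start 30948 bases inside its GENCODE span. The core occurs in 31.5% of all 32817 windows, so a match at 4 of 8 genes is a description only. The 9-letter consensus, GACCACCCA, was in 0 of the 8 windows and in 0.253% of all windows; it contains the core.

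*Ptch1*, the ligand receptor that restrains Smo (chromosome 13, 63508328 to 63573598, minus strand), varied between libraries of the same group. Gli1+ replicates 1 to 4 were at 96.8, 119, 57.6 and 11.3 CPM, and Gli1- replicates 1 to 3 at 34.3, 0 and 49.8 CPM. Of the Gli1+ libraries, 3 of 4 were above the highest Gli1- library, and replicate 4 was below 2 of the Gli1- libraries. The means were 71.2 ± 47.4 CPM (SD, n = 4) and 28.0 ± 25.5 CPM (SD, n = 3), with a log2 fold change of 1.34 and a standard error of 1.48 (edgeR, adjusted p = 1.00). The difference was smaller than its error, and was 0.76 without Gli1- replicate 2 and 2.05 without Gli1- replicate 3. *Ptch1* and *Hhip* were both highest in Gli1+ replicate 2, but the order of the other Gli1+ libraries differed. *Hhip* was lowest in replicate 1 (54.4 CPM), where *Ptch1* was next to highest. *Ptch1* was lowest in replicate 4, where *Hhip* was next to lowest (61.1 CPM).

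Among the co-receptors, *Gas1* and *Cdon* had the highest levels per exon length of the 10 genes, followed by *Boc*. *Gas1*, a membrane-anchored protein that promotes ligand binding (chromosome 13, 60174405 to 60177365, minus strand), was at 609, 596, 804 and 910 CPM in the Gli1+ libraries and at 819, 727 and 865 CPM in the Gli1- libraries. The groups overlapped, with means of 729.8 ± 153 CPM in Gli1+ (SD, n = 4) and 804 ± 70.3 CPM in Gli1- MuSCs (SD, n = 3). Its log2 fold change was the closest to 0 of the 10, at -0.14 (standard error 0.30, edgeR, adjusted p = 1.00). A non-coding gene of the opposite strand, *Gm48488*, overlaps 589 bp (19.9%) of the *Gas1* exon.

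*Cdon*, an immunoglobulin superfamily co-receptor that also promotes myogenic differentiation (chromosome 9, 35421128 to 35507652, plus strand), was at 401, 346, 165 and 217 CPM in the Gli1+ libraries. In the Gli1- libraries it was at 271, 102 and 135 CPM. Gli1+ replicates 1 and 2 were above all Gli1- libraries, and replicates 3 and 4 were within their range. The means of 282 ± 110 CPM (SD, n = 4) and 169 ± 89.8 CPM (SD, n = 3) gave a log2 fold change of 0.74 (standard error 0.42, edgeR, adjusted p = 1.00). It was 1.26 without Gli1- replicate 1 and 0.06 without Gli1- replicates 2 and 3.

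*Boc*, the close relative of *Cdon* (chromosome 16, 44485049 to 44558897, minus strand), was at 67.0, 104, 70.0 and 41.0 CPM in the Gli1+ and at 55.9, 0 and 98.9 CPM in the Gli1- libraries. Both Gli1- libraries with reads lay within the Gli1+ range, and Gli1- replicate 2 was below it. The means were 70.5 ± 25.8 CPM (SD, n = 4) and 51.6 ± 49.6 CPM (SD, n = 3). Its log2 fold change of 0.45 (standard error 1.51, edgeR, adjusted p = 1.00) became -0.13 without Gli1- replicate 2.

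*Smo*, the membrane protein that carries the signal inward (chromosome 6, 29735503 to 29761365, plus strand), was the only gene of the 10 besides *Hhip* whose groups did not overlap. The 4 Gli1+ libraries were at 67.1, 79.9, 90.6 and 118 CPM, and Gli1- replicates 1 to 3 at 37.3, 17.7 and 0 CPM. The lowest Gli1+ library was thus above the highest Gli1- library. The means were 89.0 ± 21.9 CPM (SD, n = 4) and 18.4 ± 18.7 CPM (SD, n = 3), and the log2 fold change was 2.28 with a standard error of 1.33 (edgeR, adjusted p = 1.00). Leaving out Gli1- replicate 1 gave 3.29, leaving out replicate 3 gave 1.69, and leaving out replicates 2 and 3 of that group gave 1.25. Of the 1705 other genes within 1.5-fold of its Gli1+ level, 5.87% had no read in Gli1- replicate 3, where *Smo* had none. Of the 31-base stretches of its transcripts, 161 of 5587 are shared with other genes, the highest share of the 10.

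*Gli2*, the main activator of the pathway (chromosome 1, 118834132 to 119053619, minus strand), and *Gli3*, its main repressor (chromosome 13, 15463235 to 15730026, plus strand), had the lower mean in Gli1+ MuSCs, by less than the standard error. *Gli2* was at 57.0, 44.9, 44.8 and 40.4 CPM in the Gli1+ libraries (46.8 ± 7.12, SD, n = 4) and at 78.3, 0 and 120 CPM in the Gli1- libraries (66.2 ± 61.0, SD, n = 3). The Gli1- libraries with reads were above all Gli1+ libraries, and the one without was below them. Its log2 fold change was -0.50 (standard error 1.45, edgeR, adjusted p = 1.00), and it was 0.26 without Gli1- replicate 3. Of the 2684 genes of like level, 40.1% had no read in Gli1- replicate 2, as *Gli2* had none.

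Per exon length *Gli3* was the lowest of the 10 genes in Gli1+ MuSCs, with 0, 74, 140 and 0 reads in the Gli1+ and 136, 0 and 308 reads in the Gli1- libraries. Each group had libraries with and without reads, and the means were 4.53 ± 6.03 CPM (SD, n = 4) and 8.98 ± 9.89 CPM (SD, n = 3). Its log2 fold change of -0.99 (standard error 3.16, edgeR, adjusted p = 1.00) was 0.30 without Gli1- replicate 3, and no difference was detectable at this level.

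The balance of the 3 Gli factors within a library was compared per length, as reads per kb of exon rescaled to the same total as CPM in each library. In Gli1+ replicates 1 to 4, *Gli2* was at 25.0, 18.5, 17.5 and 11.5, and *Gli1* was at 30.4, 17.3, 3.91 and 7.18. *Gli1* was thus above *Gli2* in replicate 1 alone, close to it in replicate 2 and below it in replicates 3 and 4. In Gli1- replicate 1, the one Gli1- library with *Gli1* reads, *Gli2* was at 30.3 and *Gli1* at 6.16 on the same scale. *Gli3* was below *Gli2* in all 6 libraries in which *Gli2* had reads.

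*Sufu*, the cytoplasmic protein that binds Gli proteins and holds them inactive (chromosome 19, 46396896 to 46488804, plus strand), was at 29.2, 31.2, 10.8 and 0 CPM in the Gli1+ and at 25.8, 35.9 and 13.1 CPM in the Gli1- libraries. The groups overlapped over most of their range, with means of 17.8 ± 15.0 CPM (SD, n = 4) and 24.9 ± 11.4 CPM (SD, n = 3). For *Sufu* the difference on the log2 scale was -0.48 (standard error 2.07, edgeR, adjusted p = 1.00). Its 1 value of 0 fell in a Gli1+ library, and it had reads in all 3 Gli1- libraries.

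**Figure D2:**
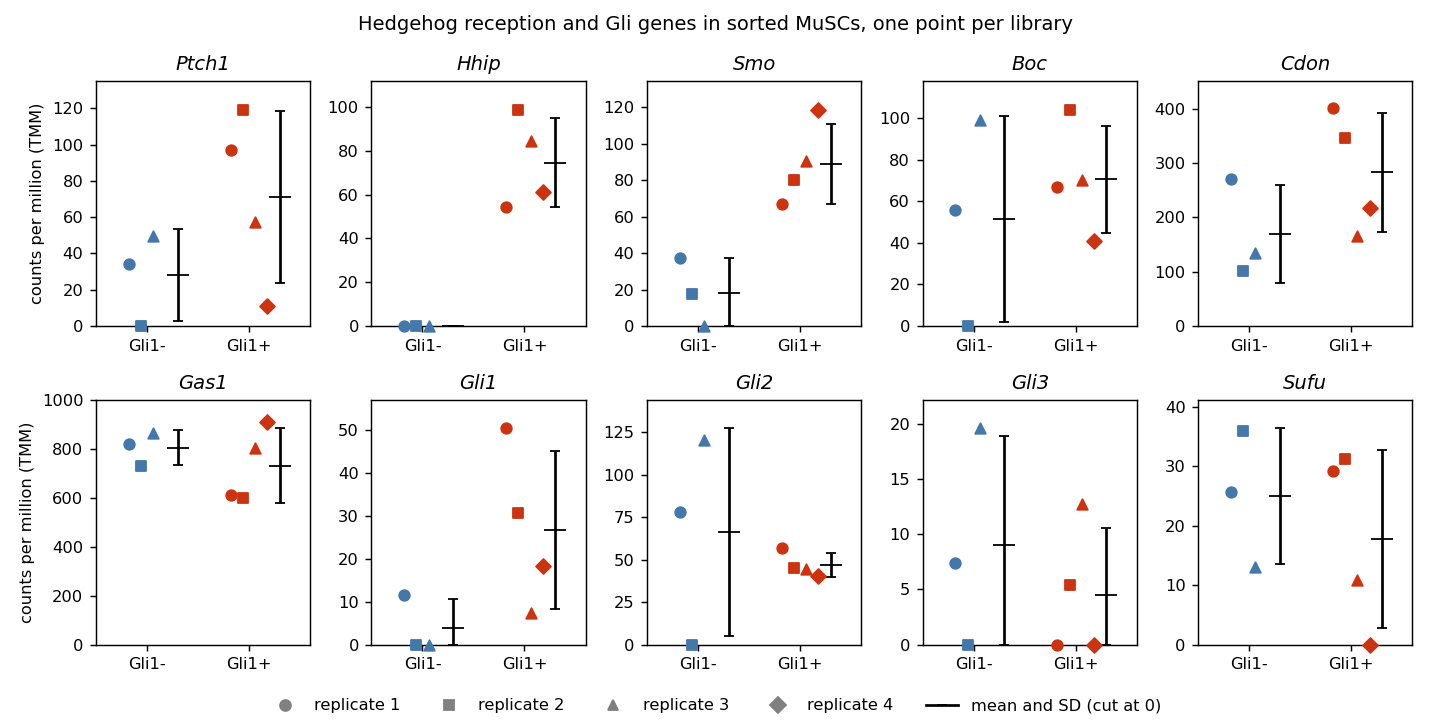
Level of each of the 10 genes (y axes, CPM after TMM scaling, each from 0) in the 3 Gli1- and the 4 Gli1+ MuSC libraries (x axes), with one point per library shaped by replicate and a bar for the mean and SD, cut at 0. *Hhip* has all Gli1- points at 0 and *Smo* has its groups apart, and the other 8 genes overlap.

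Over the 10 genes, 6 were above 0 and 4 below 0 in log2 fold change, with a median of 0.59 beside 0.30 over all genes tested, of which 65.3% were above 0. For *Hhip* the sign could only be positive, since all its Gli1- counts were 0. None of the 10 was called by edgeR at an adjusted p under 0.05 (0 higher and 0 lower), where 0% of all genes were called in either direction. DESeq2 called 1 of the 10 (*Hhip*, higher), beside 0.575% of all genes called higher and 0.018% lower, and limma-voom called 0 of the 10 and 0% of all genes. At an unadjusted p under 0.05, edgeR gave 1 gene higher (*Hhip*), beside 1.53% of all genes, and 0 lower, beside 0.611%. For 2 of the 10 every Gli1+ library was above every Gli1- library, beside 2.87% of all genes, and for 0 of the 10 every Gli1+ library was below, beside 0.934%. Of the 70 values of 10 genes in 7 libraries, 13 were 0: 6 in Gli1- replicate 2, 3 in Gli1- replicate 3, 1 in Gli1- replicate 1 and 3 in the Gli1+ libraries. The lowest value above 0 was 74 reads, so no value lay between 0 and 74. A value of 0 means that no read was counted, and need not mean that the cells lacked the transcript.

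**Figure D3:**
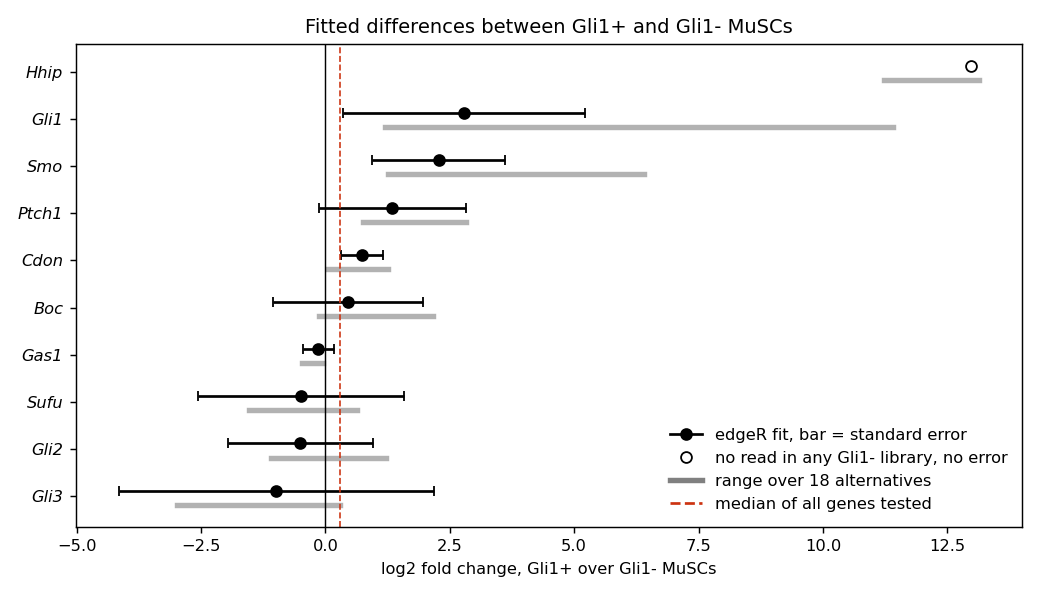
Log2 fold change of each gene (x axis, Gli1+ over Gli1- MuSCs) from the edgeR fit, with the standard error as a bar and, under it in grey, the range over 18 alternative fits. The open point of *Hhip* has no error because no Gli1- library had a read, and its position depends on the prior count; the standard errors of *Ptch1*, *Boc*, *Gas1*, *Gli2*, *Gli3* and *Sufu* span 0.

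Levels were then ordered per length, on the same scale, which takes the total over the 13267 genes with a length. In Gli1+ MuSCs the mean was 630 for *Gas1*, 99.1 for *Cdon*, 42.9 for *Boc*, 40.1 for *Smo*, 21.7 for *Hhip*, 18.1 for *Gli2*, 14.7 for *Gli1*, 14.2 for *Ptch1*, 6.67 for *Sufu* and 1.29 for *Gli3*. *Gas1* was apart from *Cdon*, and *Smo* from *Hhip*, in every Gli1+ library, while all other neighbours in the order overlapped. The co-receptors thus stood above the receptor *Ptch1* in the mean, with *Smo* between 36.0 and 43.2 in all 4 libraries. In Gli1- MuSCs, *Gas1* (724), *Cdon* (58.5) and *Boc* (31.2) had the first 3 places. *Gli2* followed at 25.9, *Smo* was at 8.64, *Sufu* at 8.59, *Ptch1* at 5.32, *Gli3* at 2.53 and *Gli1* at 2.05, and *Hhip* was last at 0.

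**Figure D4:**
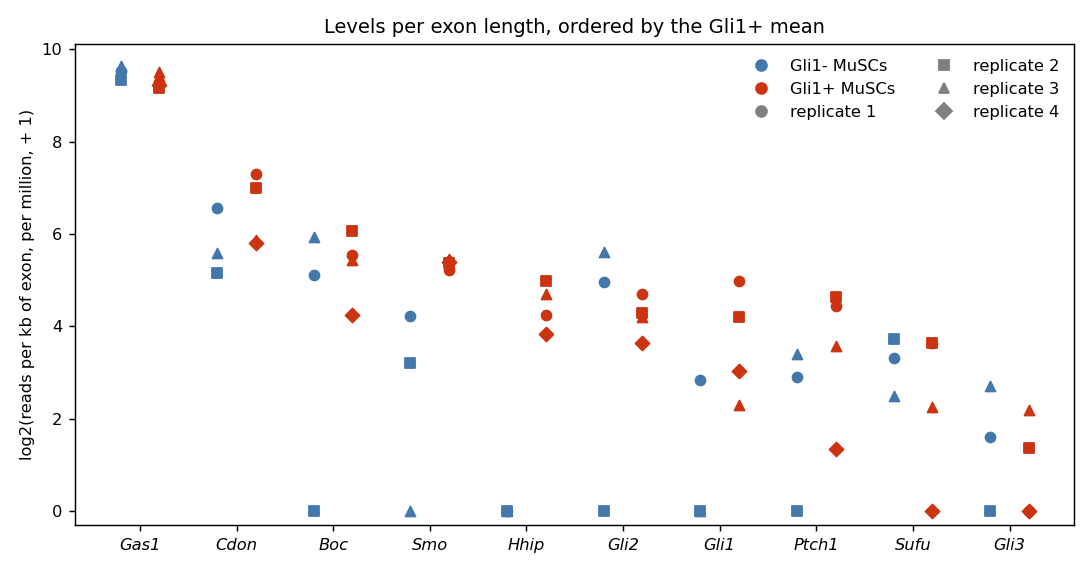
Level per exon length (y axis, log2 of the rescaled reads per kb of exon plus 1) of each gene in each library, with genes on the x axis in the order of their Gli1+ mean, colour for the group and shape for the replicate. *Gas1* stands apart at the left in both groups, and *Hhip* is at 0 in all 3 Gli1- libraries but not in any Gli1+ library.

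The markers of other cells did not follow *Gli1*, *Ptch1* or *Cdon* upward among the Gli1+ libraries. Gli1+ replicates 1 and 2, with FAP and fibroblast sums of 2032 and 2797 CPM, had the higher *Gli1* (50.3 and 30.7 CPM), *Ptch1* (96.8 and 119 CPM) and *Cdon* (401 and 346 CPM). Replicates 3 and 4, with sums of 5802 and 8615 CPM, had *Gli1* at 7.28 and 18.3 CPM, *Ptch1* at 57.6 and 11.3 CPM and *Cdon* at 165 and 217 CPM. *Smo* and *Gas1* ran the other way, from 67.1 and 609 CPM in replicate 1 to 118 and 910 CPM in replicate 4. For *Hhip*, Gli1+ replicate 1 had 54.4 CPM at a sum of 2032 CPM, within the range of the Gli1- libraries, and Gli1- replicate 2 had no *Hhip* read at a sum of 3606 CPM. Like sums need not mean like numbers of FAPs. Most of the sum came from *Col3a1*, *Dpt* and *Tcf4* in Gli1- replicate 1 (21850, 7273 and 4918 reads). The same held in Gli1+ replicate 1 (10759, 4295 and 2881 reads). Neither library held a *Pdgfra* or *Lum* read. The part of other cells in these differences, that of *Hhip* included, was not tested.

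**Figure D5:**
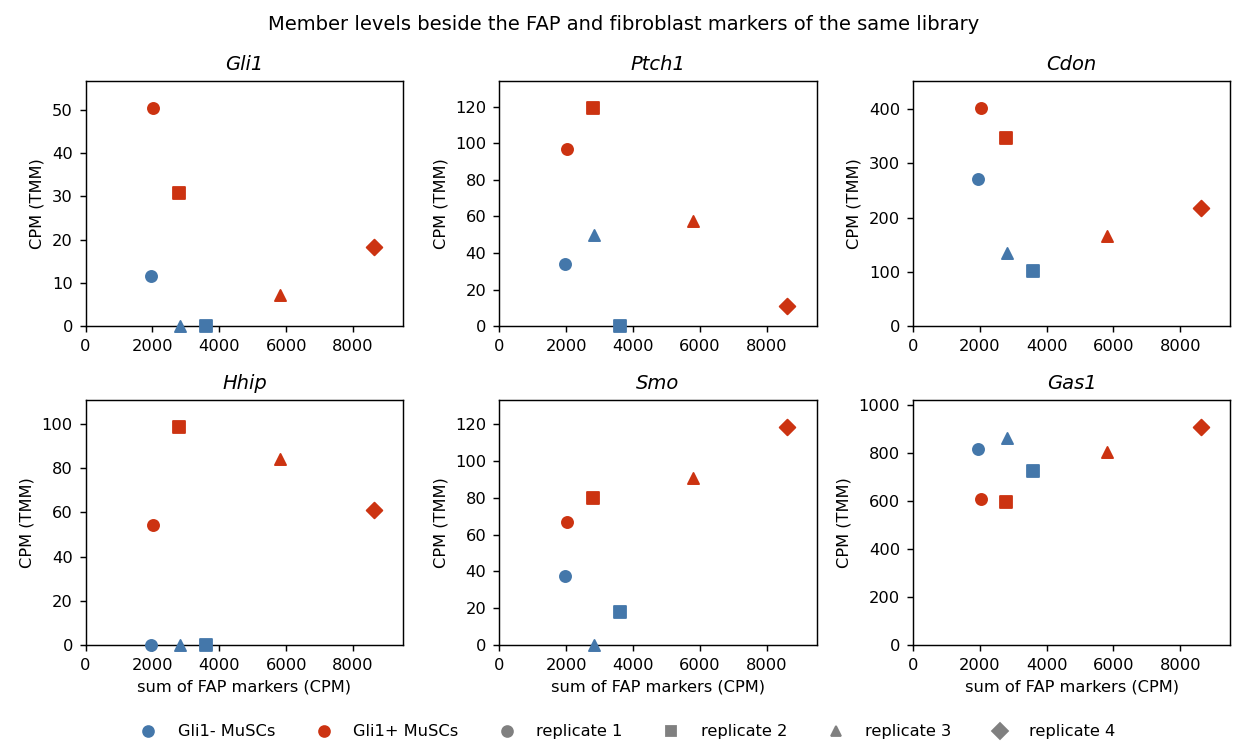
Level of 6 of the genes (y axes, CPM) against the summed level of the 15 FAP and fibroblast markers of the same library (x axes, CPM), colour for the group and shape for the replicate. The Gli1+ libraries with the highest marker sums (5802 and 8615 CPM) have the lowest *Gli1*, *Ptch1* and *Cdon* of their group and the highest *Smo* and *Gas1*.

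Other genes of the pathway were described from lists of ligands and ligand release, ligand binding and Smo regulation, Gli processing, and further targets. None of their genes was called by edgeR at an adjusted p under 0.05, where 0% of all genes were called in either direction. Over all genes tested, 65.3% were above 0 in log2 fold change, with a median of 0.30. Of the genes for ligands and their release, 6 of 10 were in the table and 3 passed the filter. *Dhh*, which encodes a Hedgehog ligand, had 62 reads in Gli1- replicate 1 and none elsewhere. *Shh* and *Ihh* were listed but not found by symbol in the count table. *Disp1*, which releases lipid-modified ligand, was at 16.0 ± 10.8 CPM (SD, n = 4) in Gli1+ and 8.02 ± 13.9 CPM (SD, n = 3) in Gli1- MuSCs. *Scube1*, a secreted relative of the release factor *Scube2*, had reads in Gli1+ replicates 2 and 3 alone (96 and 224), and *Scube2* had 94 in Gli1- replicate 1 and 116 in Gli1+ replicate 3.

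Of 13 tested genes for ligand binding and Smo regulation, 8 were above 0 and 5 below 0 in log2 fold change, with a median of 0.06. *Arrb1* and *Mgrn1* were among those with the highest means. *Arrb1*, a beta-arrestin, was at 79.2 ± 51.0 CPM (SD, n = 4) in Gli1+ and 75.7 ± 20.4 CPM (SD, n = 3) in Gli1- MuSCs. *Mgrn1*, a ubiquitin ligase that promotes the removal of Smo from the cell surface, differed by -0.30 (standard error 1.66) on the log2 scale. *Evc2*, a cilium protein that acts with Smo, had 584, 682, 812 and 312 reads in the Gli1+ and 720, 0 and 146 reads in the Gli1- libraries, and *Gpc4*, a glypican, had 226, 645, 316 and 349 against 314, 0 and 0.

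Of 23 tested genes for Gli processing, 15 were above 0 and 8 below, with a median of 0.10. *Csnk1d*, a casein kinase 1 isoform, was the one with an unadjusted p under 0.05 (edgeR, adjusted p = 1.00), beside 0.611% of all genes lower. It was at 240 ± 45.8 CPM (SD, n = 4) in Gli1+ and 380 ± 24.3 CPM (SD, n = 3) in Gli1- MuSCs. Every Gli1+ library was below every Gli1- library, as for 0.934% of all genes. *Prkar1a*, a regulatory subunit of protein kinase A, was at 458 ± 86.1 and 427 ± 185 CPM, and *Spop*, an adaptor for the breakdown of full-length Gli2 and Gli3, was at 240 ± 72.2 and 273 ± 78.5 CPM. The casein kinase genes *Csnk1a1* and *Csnk1g3* differed by 0.44 (standard error 0.36) and by -0.83 (standard error 0.72) on the log2 scale.

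Of 11 further genes reported as Hedgehog targets, 10 were above 0 and 1 below, with a median of 0.84. Over all genes tested, the share above 0 was 65.3%. For 3 of these 10 (*Snai1*, *Foxm1* and *Sfrp1*) the sign could only be positive, since all their Gli1- counts were 0. Whether the count of 10 exceeds that share was not tested. *Ccnd1*, which encodes cyclin D1, was the one of the 11 with an unadjusted p under 0.05, beside 1.53% of all genes higher. Its log2 fold change was 1.10 (standard error 0.43, edgeR, adjusted p = 1.00). It was at 160 ± 60.5 CPM (SD, n = 4) in Gli1+ and 74.4 ± 38.8 CPM (SD, n = 3) in Gli1- MuSCs. *Bmp4*, a secreted growth factor, was at 191 ± 27.6 and 132 ± 69.1 CPM, and *Bcl2*, an inhibitor of apoptosis, at 43.8 ± 13.7 and 17.7 ± 18.7 CPM. *Snai1* and *Foxm1*, which encode transcription factors, had reads in Gli1+ replicates 1 and 2 alone (152 and 143 for *Snai1*, 64 and 53 for *Foxm1*). These are the Gli1+ libraries with the higher *Gli1* and *Ptch1*, and each of the 2 genes was low even there.

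The genes most like *Hhip* over the 7 libraries, by Pearson correlation of log2(CPM + 1), were *Ifih1* (r = 0.993), *Castor1* (r = 0.986) and *Tmem100* (r = 0.984). Like *Hhip*, *Ifih1* and *Tmem100* had no read in the Gli1- libraries, and *Castor1* had 2 reads in Gli1- replicate 2. Those most like *Gli1* were *Gbp7* (r = 0.995), *Ccrl2* (r = 0.992) and *Ubtd2* (r = 0.991). All 3 had reads in Gli1- replicate 1 and none in Gli1- replicates 2 and 3, as *Gli1* did. These correlations describe 7 libraries that share their pattern of missing genes and are given without a test.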

How the data were processed

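Raw counts per gene for 7 libraries were deposited by the authors. The study's methods give STAR on GRCm38, tximport and DESeq2, whereas CASAVA and HISAT2 2.0.5 are named in the submitters' notes on processing; strand use was not found in these sources. The authors also deposited 14 columns of normalized values and a table of their own fold changes and p-values, neither of which was used.

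Groups and replicate numbers come from the sample labels. In R 4.3.3, the 11134 of 13280 genes that reached 5 reads in 2 or more libraries were scaled by TMM and compared with the two-sided quasi-likelihood test of edgeR 4.0.16 (robust, no covariate), with Benjamini-Hochberg adjustment over all genes tested. The code of the test was run on simulated counts. The outcome is not given here and no statement about power in these libraries rests on it. DESeq2 1.42.0, limma-voom (limma 3.58.1), other scalings and filters, a block, a covariate and libraries left out were alternatives. For single genes, 4 libraries against 3 allow no two-sided exact permutation p below 0.0571, and none was run. Floors cover counting error only.

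The 10 genes and all lists were chosen with earlier results of these data known. All 10 are named; of other lists, up to 3 genes with the highest mean and up to 3 with the smallest p; *Dhh* was added after its values were seen, and some genes that the rule names are left out. Coordinates, exon overlaps, lengths and shared stretches of 31 bases are from a GENCODE annotation of GRCm38, promoter windows from RefSeq.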

Additional observations from a re-analysis of the deposited data

How the results depend on the processing

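The spread between libraries limits every comparison: edgeR's common dispersion was 3.11 (as a coefficient of variation, 1.76). Of the 10 genes, 1 was called at an adjusted p under 0.05 with DESeq2 (*Hhip*, fitted log2 fold change 12.64). Leaving out each library in turn gave 0 to 1 called, the 1 being *Hhip* without Gli1- replicate 2, with its fitted log2 fold change at 12.80 to 13.14. At an unadjusted p under 0.05 there were 4 of the 10 with limma-voom (beside 7.28% of all genes, against 2.14% in the fit reported), 1 to 3 with each library left out (3 without Gli1- replicate 1, beside 11.9% of all genes, and 0.905% to 1.44% in the others), 2 with the replicate number as a block (0.701%) and 2 (1.15%) without Gli1- replicate 2 and Gli1+ replicates 3 and 4, the libraries with the highest FAP and fibroblast sums, a fit chosen after the data were seen. Some log2 fold changes changed sign. *Gli2* was at 1.23 with limma-voom, 0.67 with the block and 0.26 without Gli1- replicate 3. *Gli3* turned without the same library, *Boc* without Gli1- replicate 2, and *Sufu* was at 0.65 without the 3 libraries of highest FAP and fibroblast sums. Over the fits with each library left out, *Boc* ran from -0.13 to 1.33, *Gli2* from -1.09 to 0.26, *Gli3* from -2.31 to 0.30, *Sufu* from -0.90 to -0.08, *Ptch1* from 0.76 to 2.05, *Smo* from 1.69 to 3.29, *Cdon* from 0.48 to 1.26, *Gas1* from -0.28 to -0.05 and *Gli1* from 2.20 to 11.41. *Gli1* was at 8.15 with the block and 7.34 with limma-voom, where *Smo* was at 6.41 and *Ptch1* at 2.83. The cause was not tested. *Ptch1*, *Smo*, *Cdon*, *Gas1* and *Gli1* kept their sign in all 18 alternatives. That of *Hhip* could only be positive, since all its Gli1- counts were 0. The median over all genes was 0.30 with TMM, 0.27 with RLE scaling and 0.23 with library totals, 0.93 with limma-voom and 0.52 with the block. Deviations of same-numbered libraries from their group means correlated at r = 0.24, -0.11 and 0.07 for numbers 1 to 3. Differently numbered pairs ran from -0.24 to 0.17. With so few libraries this cannot decide whether the numbers mark the same mice, and they were not taken as pairs. With the block, 0 of the 10 were called. With the length of the longest transcript in place of all exons, 4 of the 10 genes kept their place in the order of levels over all libraries.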
